A study of Homo sapiens with 9 samples.

Results

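Iron enters most cells bound to transferrin, is stored in ferritin, leaves through a single exporter and is used for haem and iron-sulfur clusters. The 10 genes described here cover that route. TFRC encodes the transferrin receptor that takes up transferrin-bound iron, STEAP3 the endosomal reductase that turns ferric into ferrous iron, and SLC11A2 (DMT1) the transporter that moves ferrous iron across the endosomal and plasma membrane. FTH1 is the ferritin heavy chain, NCOA4 the receptor that delivers ferritin to autophagy, SLC40A1 (ferroportin) the exporter, and HFE a membrane protein that binds the transferrin receptor. ACO1 and IREB2 encode the iron regulatory proteins, and CISD1 (mitoNEET) an iron-sulfur protein of the outer mitochondrial membrane. Members were all probe sets annotated with one of these symbols and no other. Of the 10 genes, 8 were measured, by 33 probe sets, among 19775 genes on the array. TFRC and SLC11A2 had 5 probe sets each, SLC40A1, ACO1 and STEAP3 had 2 each, NCOA4 and CISD1 had 1 each, and HFE had 15. No probe set carried the symbol FTH1 or IREB2 in the annotation used, so these 2 genes were not analysed here.

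The cells were Rh30, an established human rhabdomyosarcoma line positive for the PAX3-FOXO1 fusion protein (fusion-positive rhabdomyosarcoma, FP-RMS), and RNA was measured on Affymetrix human arrays in 3 growth states with 3 arrays each. Xenografts were Rh30 tumours grown in immunodeficient SCID/beige mice. The labels describe subcutaneous implants in Matrigel from adherent or sphere cultures, whereas the study's methods describe orthotopic muscle tumours from adherent cultures for the arrays, so the site of these tumours is not settled. Spheres were collected after 48 h in ultra-low attachment plates in Neurobasal medium containing 50 µg/ml insulin, 40 ng/ml EGF, 80 ng/ml bFGF and 1X B27. Adherent cells grew as a monolayer, for which the study's methods name RPMI medium with serum (FBS). Medium and attachment changed together between spheres and adherent cells and cannot be told apart. All arrays come from 1 cell line, and the replicates are stated to be biological triplicates.

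Gene positions are those of RefSeq on GRCh38.p14. All values are log2 RMA values, an array scale on which 1 unit is a doubling. Array medians lay between 4.78 and 4.87, and correlations between arrays of 1 group between 0.990 and 0.998. The probes are human, so mouse RNA in a tumour is seen only through cross-hybridisation. The summed linear level of the measured macrophage and leukocyte markers (10 of 11 listed) was 209 to 235 in xenografts, 165 to 182 in spheres and 163 to 184 in adherent cells. That of the red cell markers (6 of 12) was 191 to 205 in xenografts, 157 to 168 in spheres and 162 to 170 in adherent cells. That of adult skeletal muscle (14 of 15) was 904 to 1130 in xenografts, 559 to 587 in spheres and 643 to 700 in adherent cells. In xenografts against adherent cells, 2 macrophage, 2 red cell and 5 muscle markers were higher and 2 muscle markers lower. ACTA1 (change 3.22) and MYH4 (2.40) moved most. Of all genes, 12.6% were higher and 14.3% lower in that comparison. Every measured macrophage and leukocyte marker except AIF1 averaged below the array medians in each group. In the same comparison the 5 dimmest of 10 bands of brightness over all genes had median changes of 0.11 to 0.18. Markers of the tumour, muscle genes together with MYCN, ALK and FOXO1, summed to 12660 to 13400 in xenografts, 9744 to 10450 in spheres and 13000 to 13620 in adherent cells. Of these 11 markers, 2 were higher (FGFR4 and MYCN) and 5 lower (DES, CHRNA1, PAX3, FOXO1 and ALK) in xenografts than in adherent cells. In spheres against adherent cells 0 were higher and 5 lower (MYOG, DES, CHRNA1, FOXO1 and ALK), and MYOD1 was called in neither comparison. Of all genes, 13.5% were higher and 16.3% lower in spheres. The log2 difference between the 3' and 5' ACTB control probe sets, a measure of RNA integrity, was 2.30 to 2.75 in xenografts, 3.15 to 3.31 in spheres and 2.07 to 2.67 in adherent cells. For GAPDH it was 0.41 to 0.64 in xenografts, 0.59 to 0.67 in spheres and 0.42 to 0.68 in adherent cells, so that only ACTB set the spheres apart. The part of tissue makeup and RNA integrity in the results on iron genes was not tested, and in bulk RNA fewer cells of a type and less RNA per cell cannot be told apart.

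SLC11A2 and NCOA4 were called lower in xenografts than in adherent cells, and their promoters are not printed. Those of the 4 other members called lower against adherent cells are shown because TFRC is a known target of the hypoxia-inducible factors, which bind the core ACGTG or GCGTG. They are RefSeq sequences of GRCh38.p14, each covering the 250 bases before the start site 5′ to 3′, with matches to the core on either strand in capitals. TFRC lies on chr3:196082091-196082340 (minus strand), ACO1 on chr9:32384393-32384642, CISD1 on chr10:58268912-58269161 and STEAP3 on chr2:119223584-119223833 (plus strand for all 3).
TFRC: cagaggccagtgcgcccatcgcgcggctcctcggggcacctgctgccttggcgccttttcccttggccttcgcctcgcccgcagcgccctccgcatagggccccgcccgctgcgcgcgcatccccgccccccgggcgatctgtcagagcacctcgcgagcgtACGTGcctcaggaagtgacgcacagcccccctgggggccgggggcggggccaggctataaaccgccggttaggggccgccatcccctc
ACO1: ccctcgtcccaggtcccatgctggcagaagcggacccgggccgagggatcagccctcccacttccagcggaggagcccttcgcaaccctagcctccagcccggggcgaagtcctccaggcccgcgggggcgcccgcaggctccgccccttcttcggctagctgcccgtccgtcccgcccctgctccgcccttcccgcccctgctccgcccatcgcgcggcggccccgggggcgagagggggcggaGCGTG
CISD1: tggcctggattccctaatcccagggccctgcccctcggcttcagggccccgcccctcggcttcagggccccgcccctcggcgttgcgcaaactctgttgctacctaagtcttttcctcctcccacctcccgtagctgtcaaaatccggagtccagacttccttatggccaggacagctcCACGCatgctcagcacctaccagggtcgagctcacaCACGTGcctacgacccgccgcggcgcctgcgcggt
STEAP3: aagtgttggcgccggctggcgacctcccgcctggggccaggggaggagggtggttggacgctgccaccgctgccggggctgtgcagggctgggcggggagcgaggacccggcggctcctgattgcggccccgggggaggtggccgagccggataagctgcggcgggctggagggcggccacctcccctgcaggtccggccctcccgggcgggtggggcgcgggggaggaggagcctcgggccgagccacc
The core was present once in TFRC (88 bases before the start) and once in ACO1 (5 bases before the start). In CISD1 it was present 3 times, of which the matches at 35 and 34 bases overlap on opposite strands in 1 E-box, CACGTG, the site bound by MYC and related factors. STEAP3 had no match in this window. Of the members not printed, SLC11A2 had the core before starts 1 and 2 of its 4, and NCOA4 before no start. The core was found before a start of 6 of the 9 members in the promoter table, and before 7 of their 14 starts, while 43.2% of all 35116 windows of this length hold it. The E-box occurred in 6.34% of windows. The matches are letters in a window and no record of binding.

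Iron regulatory proteins bind iron-responsive elements in messenger RNA. Bound near the 5′ end, as in the ferritin light chain gene FTL and the erythroid haem enzyme gene ALAS2, they block translation. Bound at the 3′ end, as in TFRC, they stabilise the transcript when iron is low. Stretches of the elements of FTL and ALAS2 are shown because they are of the kind that the ACO1 protein binds. That of FTL is cut at the end of the searched window of 50 bases. Capitals mark the core, a C, any 5 bases, then CAGTG and a base other than G, searched on the transcript strand.
FTL: ctcttgCttcaaCAGTGTttggac
ALAS2: ttcgttCgtcctCAGTGCagggcaacag
They lie on chr19:48965335-48965358 (plus strand, starting 27 bases into the transcript) and chrX:55030942-55030969 (minus strand, starting 9 bases in), and the core occurs in the first 50 bases of 1.11% of starts.

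Whether growth in 3 dimensions or in a mouse was accompanied by another level of iron genes was asked first for uptake. TFRC (chr3:196049284-196082090) was lower in both states than in adherent cells. On its brightest probe set it measured 11.80, 11.70 and 11.71 in xenografts, 12.05, 12.24 and 12.20 in spheres, and 12.50, 12.62 and 12.49 in adherent cells. The 3 groups did not overlap, with every xenograft below every sphere array and every sphere array below every adherent one. The change was -0.80 ± 0.09 (SE; 95% interval -1.0 to -0.60; adjusted p = 0.000114) in xenografts against adherent cells, or 0.575 times the adherent level. It was -0.37 ± 0.09 (-0.57 to -0.17; adjusted p = 0.0102) in spheres against adherent cells, and -0.43 ± 0.09 (-0.63 to -0.23; adjusted p = 0.00324) in xenografts against spheres. The second bright TFRC probe set measured 11.26, 11.24 and 11.47 in xenografts, 12.14, 12.17 and 12.14 in spheres, and 12.54, 12.57 and 12.58 in adherent cells. It kept the same order and fell by 1.24 in xenografts (0.423 times adherent; adjusted p = 5.1e-06) and by 0.42 in spheres (adjusted p = 0.00465). The 3 dimmer TFRC probe sets gave no single pattern. One measured 4.44, 4.73 and 5.12 in xenografts, 5.23, 5.77 and 5.69 in spheres, and 5.54, 5.85 and 5.57 in adherent cells, and was lower in xenografts than in adherent cells (-0.89, adjusted p = 0.00452) and than in spheres (-0.80, adjusted p = 0.00464). Another measured 5.76, 5.51 and 6.05 in xenografts, 5.51, 5.14 and 5.27 in spheres, and 5.56, 5.45 and 5.54 in adherent cells, and was higher in xenografts than in spheres (0.47, adjusted p = 0.0205). The last, at 2.22 to 2.74, lay below the array medians on all 9 arrays with no call. With the mean of all 5 probe sets, the TFRC change in spheres was -0.16 and no longer called (adjusted p = 0.170).

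STEAP3 (chr2:119223834-119265652) had the largest changes of the 8 genes in both comparisons with adherent cells, when each gene was read from its brightest probe set. It measured 6.80, 6.62 and 6.18 in xenografts, 6.02, 5.64 and 5.82 in spheres, and 7.61, 7.70 and 7.26 in adherent cells. No groups overlapped, and here spheres were lowest. Spheres had 0.309 times the adherent level (-1.70 ± 0.17, 95% interval -2.06 to -1.33; adjusted p = 1.79e-05), a lower change than all but 0.394% of genes. For the other members called lower in spheres this share was 9.27% (CISD1), 15.1% (TFRC) and 15.4% (ACO1). Xenografts had 0.503 times the adherent level (-0.99 ± 0.17, -1.36 to -0.62; adjusted p = 0.00144), and 1.63 times the sphere level (0.70 ± 0.17, 0.34 to 1.07; adjusted p = 0.00635). Both xenograft calls were lost with an unmoderated test, which takes the spread from each probe set alone (adjusted p = 0.0809 and 0.0991). The other STEAP3 probe set lay below the array medians on all arrays and was not called in any comparison.

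SLC11A2 (chr12:50952263-51028886) passed the test in xenografts against adherent cells. Its brightest probe set measured 9.24, 9.09 and 9.16 in xenografts, 9.26, 9.47 and 9.52 in spheres, and 9.51, 9.51 and 9.52 in adherent cells. Xenografts lay below all other arrays, by a narrow gap from the first sphere array, and spheres overlapped adherent cells. The change was -0.35 ± 0.10 in xenografts (adjusted p = 0.0214), -0.10 ± 0.10 in spheres (adjusted p = 0.553) and -0.25 ± 0.10 between xenografts and spheres (adjusted p = 0.0542). The second probe set had 8.39, 8.39 and 8.53 in xenografts, 8.92, 9.12 and 8.97 in spheres, and 8.99, 9.08 and 9.12 in adherent cells. It was lower in xenografts than in adherent cells (-0.63, adjusted p = 0.000635) and than in spheres (-0.57, adjusted p = 0.000576). Another probe set, near 4 and below the array medians throughout, was lowest in spheres, at 3.52, 3.41 and 3.33 against 4.47, 4.37 and 4.20 in adherent cells (-0.93, adjusted p = 9.12e-05), and measured 3.82, 3.84 and 4.13 in xenografts. This set was also lower in xenografts than in adherent cells (-0.42, adjusted p = 0.0226) and higher in xenografts than in spheres (0.51, adjusted p = 0.00442). The remaining sets were not called in any comparison. Of these, 1 lay above the array medians throughout, at 7.10 to 7.20 in xenografts, 7.05 to 7.34 in spheres and 7.06 to 7.30 in adherent cells (-0.04 in xenografts and 0.00 in spheres against adherent cells, and -0.05 in xenografts against spheres), and the other lay below them at 2.95 to 3.50. The 2 brightest sets thus shared the lowest state. The dim set lowest in spheres shared their fall in xenografts against adherent cells and differed in the order of xenografts and spheres. The call of the brightest set in xenografts was lost after quantile normalization (adjusted p = 0.107) and without 1 of 4 arrays (xenograft replicate 2 or any adherent replicate, adjusted p 0.0600 to 0.0677).

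**Figure D1:**
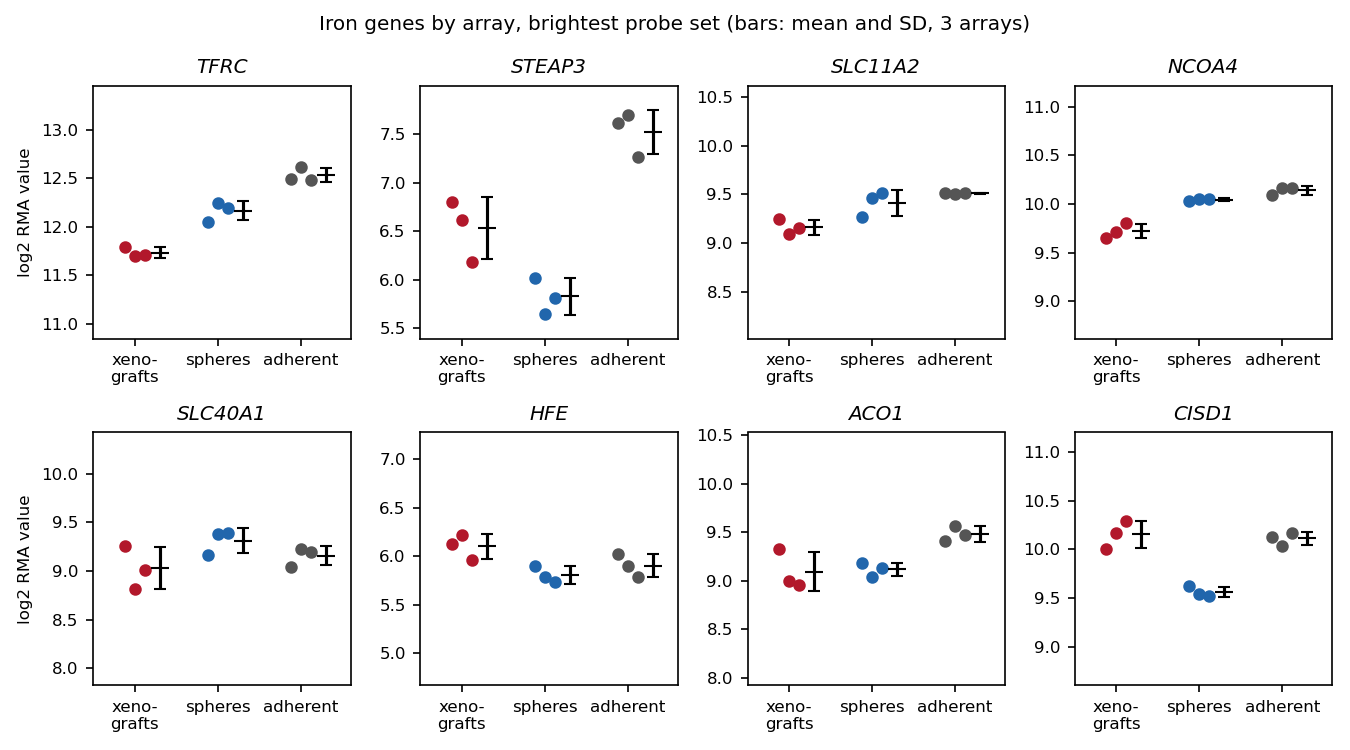
Log2 RMA value (y axis, the same span of 2.6 units in every panel) of the brightest probe set of each measured iron gene on the 3 xenograft, 3 sphere and 3 adherent arrays, with the mean and SD of each group beside the points. TFRC is lowest in xenografts (11.70 to 11.80) with no overlap between groups, and STEAP3 (5.64 to 6.02) and CISD1 (9.52 to 9.62) are lowest in spheres.

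Storage and export were next. NCOA4, the ferritin cargo receptor (chr10:46005088-46030623), measured 9.65, 9.72 and 9.80 in xenografts, 10.03, 10.05 and 10.05 in spheres, and 10.09, 10.17 and 10.16 in adherent cells. Xenografts were lower than adherent cells (-0.42 ± 0.08, 95% interval -0.60 to -0.23; adjusted p = 0.00448) and than spheres (-0.32 ± 0.08, -0.51 to -0.14; adjusted p = 0.0109). Spheres and adherent cells did not overlap, yet their difference of -0.09 ± 0.08 was not called (adjusted p = 0.507). SLC40A1, the exporter (chr2:189560590-189580786), was not called on its brightest probe set. It measured 9.25, 8.82 and 9.02 in xenografts, 9.16, 9.38 and 9.39 in spheres, and 9.04, 9.23 and 9.19 in adherent cells, with all 3 groups overlapping. Its dimmer probe set measured 4.66, 5.08 and 4.87 in xenografts, 5.30, 5.40 and 5.26 in spheres, and 4.82, 4.62 and 4.8 in adherent cells. There spheres were higher than adherent cells (0.57 ± 0.12, adjusted p = 0.00281) and xenografts were lower than spheres (-0.45 ± 0.12, adjusted p = 0.00928). This dimmer set lay above the array medians on 4 of the 9 arrays. The mean of both sets contains it and is no separate evidence. With that mean spheres were above adherent cells (0.37, adjusted p = 0.00193) and xenografts below spheres (-0.37, adjusted p = 0.00144). On the brightest set alone these changes were 0.16 (adjusted p = 0.424) and -0.28 (adjusted p = 0.0844). FTL, measured as one of the other iron genes on a probe set of a kind prone to cross-hybridisation, averaged 12.49 ± 0.02 in xenografts, 13.21 ± 0.04 in spheres and 12.66 ± 0.04 in adherent cells (SD, n = 3 each). Its change was 0.55 ± 0.08 in spheres against adherent cells (1.47 times; adjusted p = 0.000332), -0.17 ± 0.08 in xenografts against adherent cells (adjusted p = 0.163) and -0.72 ± 0.08 in xenografts against spheres (adjusted p = 3.74e-05).

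HFE (chr6:26087429-26098343) had the most probe sets. The brightest measured 6.13, 6.22 and 5.96 in xenografts, 5.90, 5.78 and 5.73 in spheres, and 6.03, 5.89 and 5.79 in adherent cells. Only xenografts and spheres did not overlap, with a difference of 0.30 ± 0.10 (95% interval 0.07 to 0.52; adjusted p = 0.0402) that lost its call in 10 of 22 alternatives (adjusted p up to 0.189). By probe set, 5 of the 15 were higher in xenografts than in spheres, where 39.1% of all probe sets were called. Against adherent cells 2 were higher in xenografts (23.0% of all probe sets called) and 1 was lower in spheres (26.0% called). HFE probe sets are mostly of a kind prone to cross-hybridisation, and 8 of the 15 lay below the array medians on all 9 arrays.

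Of the genes for iron sensing and iron-sulfur proteins, ACO1 (chr9:32384643-32454769) was lower in both states than in adherent cells. The cytosolic aconitase and iron regulatory protein gene measured 9.33, 9.0 and 8.95 in xenografts, 9.18, 9.04 and 9.13 in spheres, and 9.41, 9.56 and 9.47 in adherent cells. Adherent arrays lay above all others, and xenografts and spheres overlapped. The change was -0.39 ± 0.11 in xenografts (95% interval -0.63 to -0.14; adjusted p = 0.0272) and -0.36 ± 0.11 in spheres (-0.61 to -0.12; adjusted p = 0.0313), and -0.02 ± 0.11 between xenografts and spheres (-0.27 to 0.22; adjusted p = 0.874). The dimmer ACO1 probe set measured 4.26, 4.61 and 4.08 in xenografts, 3.72, 3.75 and 4.0 in spheres, and 4.64, 4.81 and 4.90 in adherent cells. It was lower than in adherent cells in xenografts (-0.47, adjusted p = 0.0326) and in spheres (-0.96, adjusted p = 0.000304), and higher in xenografts than in spheres (0.49, adjusted p = 0.0164). On the brightest set the sphere call was lost without 1 of 5 arrays (sphere replicate 2 or 3, or any adherent replicate; adjusted p 0.0523 to 0.115). The xenograft call was lost after quantile normalization (adjusted p = 0.102), with the 2 compared groups alone (0.0547), with the unmoderated test (0.150) and without xenograft replicate 2 or 3 or adherent replicate 2 or 3 (0.0755 to 0.104).

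CISD1 (chr10:58269162-58289586) was lower in spheres than in both other states. It measured 10.01, 10.17 and 10.29 in xenografts, 9.62, 9.55 and 9.52 in spheres, and 10.13, 10.04 and 10.17 in adherent cells. Spheres lay below all 6 other arrays, at 0.682 times the adherent level (-0.55 ± 0.10, 95% interval -0.77 to -0.34; adjusted p = 0.00114), and xenografts were at 1.51 times the sphere level (0.60 ± 0.10, 0.38 to 0.81; adjusted p = 0.000543). Xenografts and adherent cells overlapped, and their difference was 0.04 ± 0.10 (-0.17 to 0.26; adjusted p = 0.782).

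**Figure D2:**
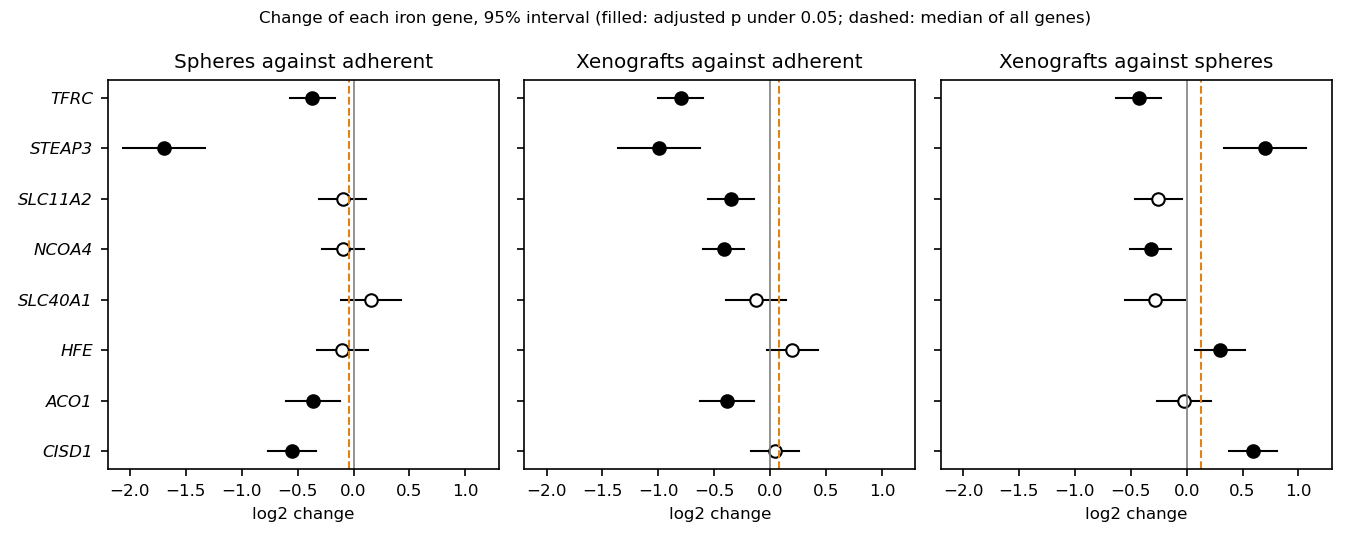
Log2 change of each iron gene on its brightest probe set with its 95% interval, for spheres against adherent cells, xenografts against adherent cells and xenografts against spheres, with filled points for an adjusted p under 0.05 and a dashed line at the median of all 19775 genes. Every called change against adherent cells lies below 0, while STEAP3 and CISD1 lie above 0 in xenografts against spheres (0.70 and 0.60).

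Counted together, in spheres against adherent cells 4 of the 8 genes were lower (TFRC, STEAP3, ACO1 and CISD1) and 0 higher. Of all genes 29.8% were called, 16.3% lower and 13.5% higher. The members' median change was -0.23 beside -0.04 over all genes. In xenografts against adherent cells 5 were lower (TFRC, STEAP3, SLC11A2, NCOA4 and ACO1) and 0 higher, where 26.9% of all genes were called, 14.3% lower and 12.6% higher, and the medians were -0.37 for the members and 0.08 for all genes. In xenografts against spheres 3 were higher (STEAP3, CISD1 and HFE) and 2 lower (TFRC and NCOA4), where 44.0% of all genes were called, 25.7% higher and 18.3% lower, and the medians were -0.14 for the members and 0.13 for all genes. These comparisons share arrays, so their counts are not independent. In xenografts against adherent cells the median change of all genes depended on brightness. It was 0.18 in band 4 of 10 bands of brightness, counted from the dimmest, and -0.12 in band 9. SLC11A2, SLC40A1 and ACO1 belong to band 9, with changes of -0.35, -0.13 and -0.39. TFRC, NCOA4 and CISD1 belong to band 10, whose median was -0.07, with changes of -0.80, -0.42 and 0.04. In spheres against adherent cells the median was -0.09 in band 9 and in band 10. HFE belongs to band 5, whose median in xenografts against spheres was 0.18, beside its change of 0.30. Shares of genes called were not computed within bands. By probe set, 9 of the 33 were called in spheres against adherent cells (1 higher, 8 lower; 26.0% of all probe sets), 12 in xenografts against adherent cells (2 higher, both of HFE, and 10 lower; 23.0%) and 16 in xenografts against spheres (10 higher, 6 lower; 39.1%).

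**Figure D3:**
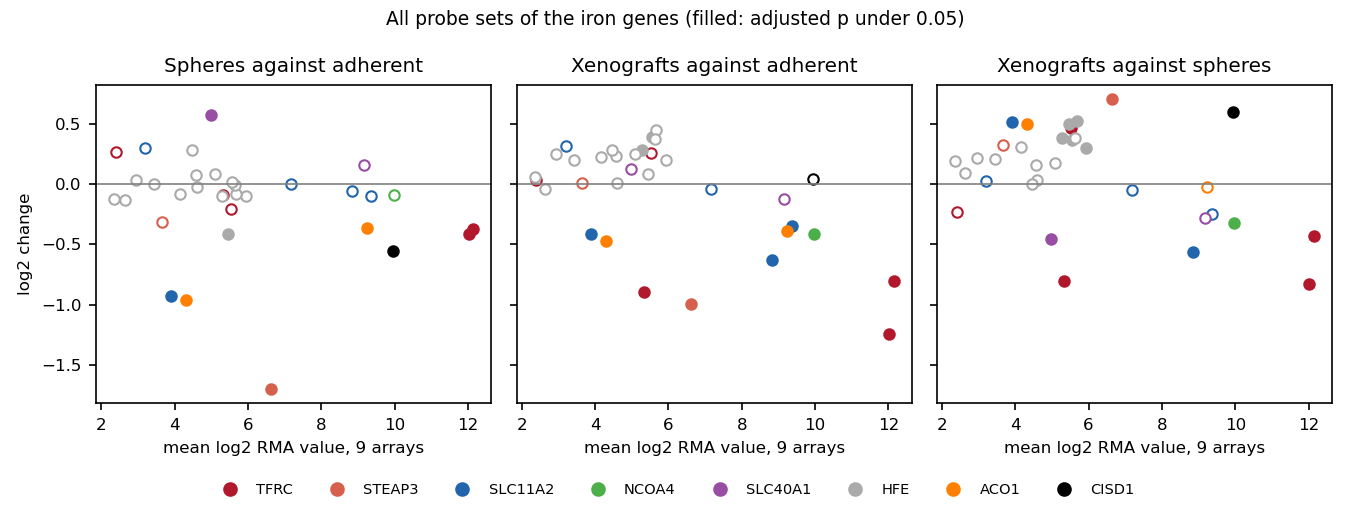
Log2 change of all 33 probe sets of the iron genes (y axis) against their mean log2 RMA value over 9 arrays (x axis) in the 3 comparisons, coloured by gene and filled where the adjusted p was under 0.05. The bright TFRC sets fell in both comparisons with adherent cells, and the HFE sets (grey) cluster between 2 and 6 on the x axis.

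The other genes of iron and haem handling were read from 6 lists by role, 72 genes of which 65 were measured. In spheres against adherent cells 8 were higher and 17 lower (38.5% called, median -0.09), beside 29.8% called and a median of -0.04 over all genes. The largest falls were in GLRX3 (-1.16), a glutaredoxin that carries iron-sulfur clusters, EPAS1 (-1.14), the hypoxia-inducible factor whose transcript has an iron-responsive element, and NUBP1 (-0.96), a scaffold of cytosolic iron-sulfur assembly. GLRX3 was read from a probe set of a kind prone to cross-hybridisation. The largest rises were in BLVRB (1.56), a biliverdin reductase, PPOX (0.88), which makes protoporphyrin, and STEAP2 (0.56), a metalloreductase that averaged 3.39 in spheres and 2.83 in adherent cells, well below the array medians. Of 10 storage, chaperone and sensing genes 1 was higher and 5 were lower, and of 10 uptake and reduction genes 2 were higher and 0 lower.

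In xenografts against adherent cells 8 of the 65 were higher and 10 lower (27.7% called, median 0.01), beside 26.9% called and a median of 0.08 over all genes. The largest falls were in EPAS1 (-1.44, 0.370 times; adjusted p = 6.8e-06), NEO1 (-1.05), a hemojuvelin receptor, and SCARA5 (-0.86), a ferritin receptor. The largest rises were in HAMP (1.16, 2.23 times; adjusted p = 0.000121), which encodes the iron hormone hepcidin, ALAD (0.67), an early enzyme of haem synthesis, and FBXL5 (0.47), which targets iron regulatory proteins for degradation. In export and systemic regulation 4 were higher and 4 lower of 9, among them HEPH, CP and HJV, whose group means of 2.48 to 3.96 lay below the array medians, and the dimmer 5 bands of all genes had median changes of 0.11 to 0.18 in xenografts.

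In xenografts against spheres 23 were higher and 14 lower (56.9% called, median 0.19), beside 44.0% called and a median of 0.13 over all genes. HAMP (1.59), GLRX3 (1.04) and GLRX5 (0.85), a mitochondrial cluster carrier, rose most, and BLVRB (-1.46), NEO1 (-1.20) and ALAS1 (-0.75), which starts haem synthesis outside red cells, fell most. GLRX3 averaged 9.95 ± 0.09 in xenografts, 8.91 ± 0.06 in spheres and 10.07 ± 0.05 in adherent cells (SD, n = 3 each). Its sphere arrays were thus the ones apart, as with CISD1. HAMP averaged 7.16 ± 0.21 in xenografts, 5.57 ± 0.22 in spheres and 6.0 ± 0.10 in adherent cells. EPAS1 averaged 8.25 ± 0.22 in xenografts, 8.55 ± 0.01 in spheres and 9.68 ± 0.03 in adherent cells, so it was lower in both states, as TFRC was. ALAS2 was not called in any comparison, with 5.21 ± 0.22 in xenografts, 4.94 ± 0.02 in spheres and 4.94 ± 0.09 in adherent cells.

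**Figure D4:**
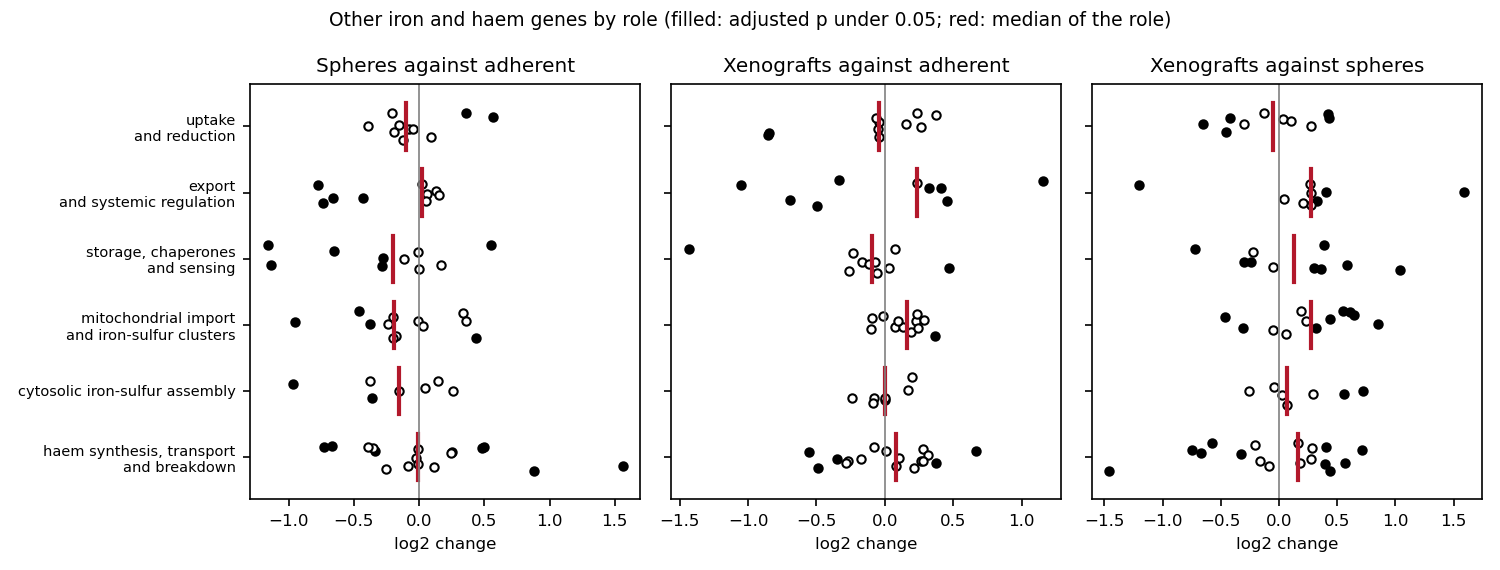
Log2 change of the 65 measured other iron and haem genes by role in the 3 comparisons, 1 point per gene, filled where the adjusted p was under 0.05, with a red bar at the median of each role. In xenografts against adherent cells 8 of the 9 export and systemic regulation genes are filled, on both sides of 0, and BLVRB stands apart at 1.56 in spheres.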

How the data were processed

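RNA from 3 xenografts, 3 sphere cultures and 3 adherent cultures of Rh30 cells was hybridised to Affymetrix HG-U133 Plus 2.0 arrays. The deposited values are log2 expression values per probe set, made by the authors with RMA, which corrects background, normalizes arrays together and summarises probes; the software version is not given in the sources used here. All columns of values were mapped to a sample. Only these values entered the tests. The 62 control probe sets were set aside and 54613 tested with limma 3.58.1 in R 4.3.3, with a coefficient per group over the 9 arrays (6 residual degrees of freedom) and Benjamini-Hochberg adjustment over all probe sets. A call is an adjusted p under 0.05. The platform annotation gave 41091 probe sets 1 symbol, 1801 several and 11721 none. A gene was read from its brightest single-symbol probe set. All probe sets of the members were tested; every array is given for the sets the results turn on, and the other sets by range or count. Of the other iron genes, the 3 largest rises and falls among calls and FTL, ALAS2 and EPAS1 are named. Members and lists were chosen with earlier results of these data known. The scripts were tested on simulated data. Precision is limited by 3 arrays a group. RMA draws low values towards a floor and understates changes of dim or very bright probe sets. Alternatives in normalization, test, filter, probe set choice, arrays fitted and replicates were tried.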

Additional observations from a re-analysis of the deposited data

How the results depend on the processing

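The direction of the called changes of TFRC, STEAP3, NCOA4 and CISD1 was kept in every alternative run. Reversals touched differences that were not called on the brightest probe set. In xenografts against adherent cells, SLC40A1 was 0.0061 after quantile normalization, and CISD1 was -0.0091 with median centring and -0.023 to 0.12 with 1 array left out (-0.023 without xenograft replicate 3). In xenografts against spheres, ACO1 was 0.054 after quantile normalization, 0.49 (adjusted p = 0.0171) with probe sets less prone to cross-hybridisation, 0.23 with the mean of all probe sets and -0.14 to 0.045 with 1 array left out (0.022 without xenograft replicate 2, 0.045 without xenograft replicate 3 and 0.0054 without sphere replicate 1), and SLC11A2 was 0.51 (adjusted p = 0.00489) with probe sets less prone to cross-hybridisation, which reads another probe set of these genes.

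Called members in xenografts against adherent cells numbered 5, but 3 after quantile normalization, 3 with an unpaired t-test after adjustment (a test the methods list, without tying it to the arrays), 3 with probe sets less prone to cross-hybridisation, 0 at 2-fold or more, and 3 to 5 with 1 array left out (3 without xenograft replicate 2, adherent replicate 2 or adherent replicate 3). Probe sets less prone to cross-hybridisation exist for 5 of the 8 members and not for STEAP3, NCOA4 or CISD1, so counts with them cover other sets and fewer genes. In xenografts against spheres the 5 became 3 with the adjusted t-test, 3 with probe sets less prone to cross-hybridisation and 0 at 2-fold, and 4 to 6 with 1 array left out. In spheres against adherent cells the 4 became 1 at 2-fold, and 3 to 4 with 1 array left out. Other iron and haem genes called in xenografts against adherent cells numbered 18, but 7 with the adjusted t-test, 3 at 2-fold and 11 to 21 with 1 array left out (11 without adherent replicate 3). In xenografts against spheres the 37 became 18, 4 and 22 to 39 in the same order (22 without sphere replicate 2). In spheres against adherent cells the 25 became 3 at 2-fold, 16 with probe sets less prone to cross-hybridisation and 20 to 30 with 1 array left out. The 2-fold and probe set counts follow from how those alternatives are built; the cause of the other losses was not tested.

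With the replicate number as a replicate block, called members stayed at 4, 5 and 5 (spheres against adherent cells, xenografts against adherent cells, xenografts against spheres) and other iron genes numbered 23, 14 and 32. Same-numbered arrays correlated between -0.18 and 0.18 in their deviations from the group means. Of 9 arrays, 2 were closest to one of their own number, but 3 arrays a group cannot settle pairing. Of all genes in xenografts against adherent cells, 2500 were higher and 2829 lower, against 3015 and 2111 after quantile normalization and 1836 and 3252 with median centring. All genes' median in xenografts against spheres was 0.13. The planned comparison of 3' and 5' TFRC control probe sets was not run, since those sets were not analysed here. Signal over background limits dim probe sets, and 3 arrays a group limit small changes.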
